A study of Mus musculus with 8 samples.

Results

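Triglyceride assembly in the liver was followed here through 9 genes: Gpam, Agpat2, Agpat3, Lpin1, Lpin2, Dgat1, Dgat2, Mogat1 and Pnpla3. They were found by gene symbol among 19896 named genes, after older symbols had been brought up to date, and all 9 were present, each read by 1 probe. Pnpla3 was listed under its older symbol Adpn. Liver total RNA came from 3 mice labelled Me1-/- (mice 27, 31 and 33) and from 5 littermates labelled wild type (mice 14, 15, 21, 22 and 26), and values listed per mouse keep these orders. Each mouse's RNA shared arrays, in Cy3 and Cy5 with dyes swapped, with pooled liver RNA of 5 wild-type mice. The sources used here do not give how the Me1 allele was made, or the age, sex, strain, diet and feeding state of the mice. Every value below is a log2 ratio of 1 mouse to the pool unless it is called a difference, and a difference is the knockout mean minus the wild-type mean. Such ratios show no absolute level, so levels cannot be compared between genes.

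Triglyceride is built by adding fatty acids, carried as acyl-CoA, to a glycerol backbone. In the glycerol phosphate route, Gpam adds the first acyl chain to glycerol 3-phosphate, Agpat enzymes add the next, lipins remove the phosphate to leave diacylglycerol, and the Dgat enzymes add the last chain. Mogat1 enters by a shorter route, since it makes diacylglycerol from monoacylglycerol, and it is known in mice as a gene that is higher in fatty liver and under PPAR-gamma. Me1, the targeted gene, encodes the cytosolic malic enzyme, one source of the NADPH used to make the fatty acids themselves.

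Me1 RNA did not mark the genotypes. Its 1 probe stood at 0.82, -0.64, -0.70, -1.73 and 0.70 in the 5 wild types, and at 0.82, -0.81 and -0.68 in the 3 knockouts. The difference was 0.09 ± 0.64 (SE), with a 95% interval from -1.38 to 1.55, or 0.54 if the sign of the knockout arrays is turned. A probe outside the altered stretch of the gene would not check the labels, and the place of this probe in the gene was not given. Precision is limited by how few arrays there are, and they differed in spread: the SD of all log2 ratios was 0.127 to 0.139 in wild-type mice 14, 15 and 21, 0.191 in mouse 26 and 0.291 in mouse 22, against 0.185 to 0.273 in the knockouts.

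The base of the logarithm and which RNA is the numerator had to be inferred. Were the pool made like the 5 wild types, their mean linear ratio would be close to 1. Read as log10 of mouse over pool, that mean was 0.997 for Mogat1, 0.991 for Gpam and 0.969 for Pnpla3, the 3 members that varied most among wild types. With the opposite sign it was 1.31, 1.13 and 1.69. For the other 6 members both readings gave means within 0.987 to 1.03, which does not tell them apart. Over the 300 most variable probes the median of that mean was 0.996 read as log10 and 0.971 read as log2 of mouse over pool. This check therefore does little to tell the bases apart, and every log2 value and fold given here takes base 10. Of the 28 pairs of arrays, 3 correlated below -0.3 over all probes, 2 of them between wild types and 1 between a wild type and a knockout. The pairs of knockouts correlated at 0.42, 0.44 and 0.62, and the pairs of a wild type and a knockout at -0.39 to 0.26. The sample titles have the same form in both genotypes, pool against mouse, but do not say which RNA is the numerator. The check on the wild types does not reach the knockout arrays, so their direction is not settled. Main differences, counts and ranks of differences that rest on them are given again, there or in the closing section, with those arrays at the opposite sign. Ranks by likeness between genes, and fits with mice left out or other scalings, are given in the first reading only.

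In the knockouts, Mogat1 was the member furthest from the wild types, 5.68-fold lower, and Lpin1 was 1.94-fold higher. Both had all 3 knockout values outside the wild-type range. Agpat2 was 1.36-fold lower with 1 knockout inside that range, and the remaining 6 members had intervals that included 0. No member passed an adjusted p of 0.05 over all 36169 features in limma, where 10 features, or 0.0276%, did. Without adjustment 3 of 9 members passed 0.05, against 9.28% of all features. The members were chosen with earlier results of these data known, so this share and those that follow do not test the list. The groups did not overlap with the knockout lower in 1 member, Mogat1, against 2.85% of features, and with the knockout higher in 1 member, Lpin1, against 4.35%, so that 2 of 9 members did not overlap, against 7.21% of features. The median difference over the 9 members was 0.03, with 5 above and 4 below 0, beside a median of 0.01 over all features. Of all features 55.3% were above 0, and of named genes 49.9%. With the knockout arrays' sign turned, 0 members and 8 features (0.0221%) passed, and 7 of the 9 differences changed sign. In that reading 3 of 9 members passed 0.05 without adjustment, against 11.5% of features. The groups then did not overlap in the same 2 members, with Mogat1 higher, against 3.78% of features, and Lpin1 lower, against 7.05%.

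**Figure D1:**
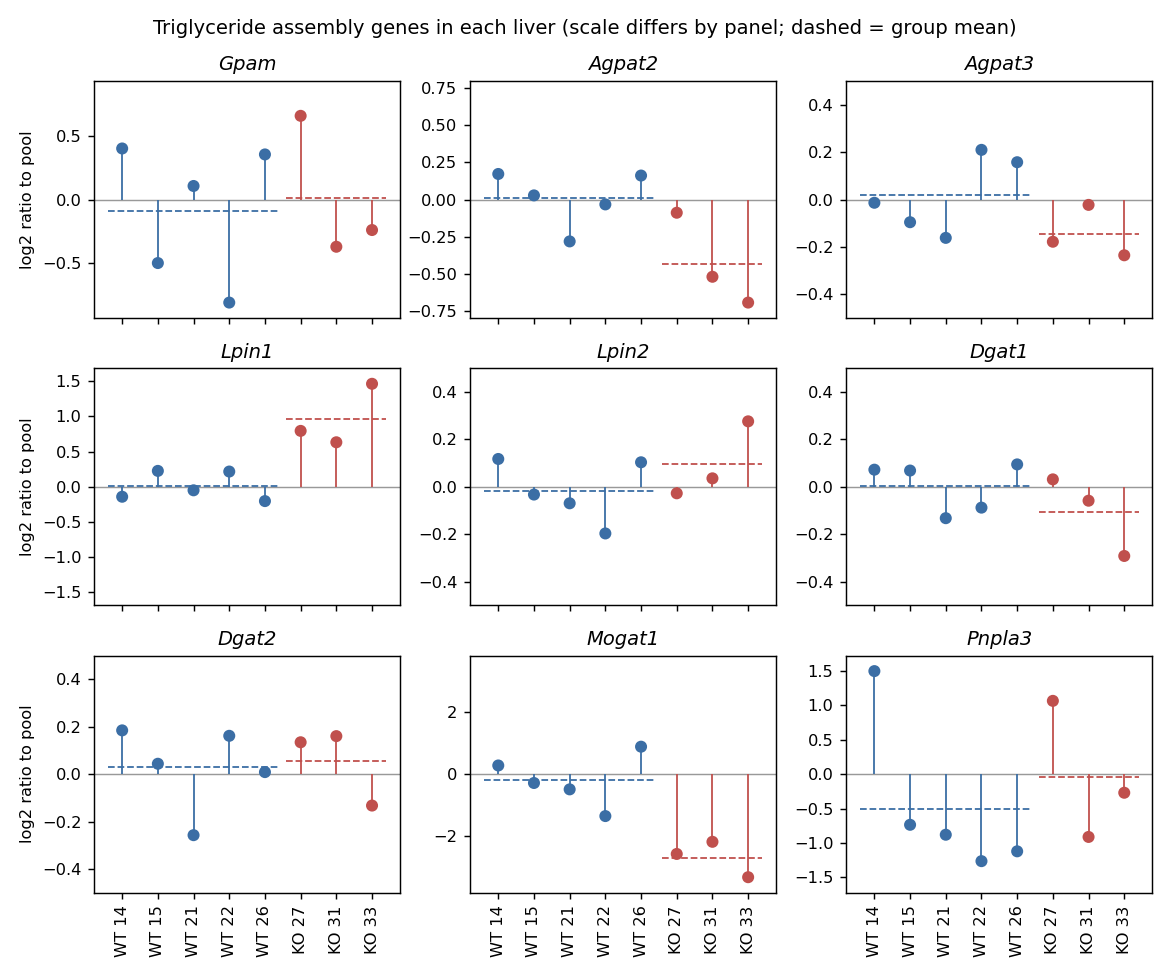
Log2 ratio to the wild-type pool (y axis, scaled per panel) of each of the 9 genes in 5 wild-type (WT, blue) and 3 knockout (KO, red) livers on the x axis; points are single mice and dashed lines are group means. Mogat1 lies between -3.33 and -2.19 in the knockouts and between -1.36 and 0.89 in the wild types, while Pnpla3 is above 0 in WT 14 and KO 27 alone.

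Gpam, the mitochondrial acyltransferase that starts the glycerol phosphate route, varied between mice more than between genotypes. Its log2 ratio was 0.40, -0.50, 0.11, -0.81 and 0.35 in the 5 wild types. In the 3 knockouts it was 0.66, -0.37 and -0.24. Mouse 27 was thus the highest of all 8, and the other knockouts lay inside the wild-type range. The difference of 0.11 ± 0.34 (SE, n = 3 and 5) had a 95% interval from -0.68 to 0.89 and a limma adjusted p of 0.927. It turned negative without wild-type mouse 22 (-0.08) and without knockout mouse 27 (-0.22), and was 0.07 with the knockout sign turned.

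Agpat2 and Agpat3 make phosphatidate from lysophosphatidate. Loss of AGPAT2 causes lipodystrophy in humans. Agpat2 stood at 0.17, 0.03, -0.28, -0.03 and 0.16 in the 5 wild types, and at -0.09, -0.52 and -0.69 in the 3 knockouts. Knockout mice 31 and 33 were below every wild type, and mouse 27 was not. The difference was -0.44 ± 0.15, with a 95% interval from -0.79 to -0.10, an unadjusted limma p of 0.0182 and an adjusted p of 0.473. The exact permutation test, two-sided and with 56 splits of the mice, gave an unadjusted p of 0.0536. With the knockout sign turned the difference was 0.43. Agpat3 ranged from -0.16 to 0.21 in the wild types and from -0.24 to -0.02 in the knockouts, so the groups overlapped. Its difference was -0.16 ± 0.10 (95% interval -0.39 to 0.06, adjusted p = 0.632), or 0.13 with the sign turned. Without wild-type mouse 22 and knockout mouse 33, the 2 widest arrays, it was -0.07.

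Lpin1 and Lpin2 encode phosphatidate phosphatases, and lipin 1 is also known to act in the nucleus with PPAR-alpha and its cofactor PGC-1alpha. Lpin1 stood at -0.14, 0.23, -0.05, 0.22 and -0.20 in the 5 wild types. In the 3 knockouts it stood at 0.79, 0.63 and 1.46. The lowest knockout lay 0.41 above the highest wild type, and mouse 33 was well above the other knockouts. The group values were 0.01 ± 0.20 (SD, n = 5) in the wild type and 0.96 ± 0.44 (SD, n = 3) in the knockout. The difference of 0.95 ± 0.19 (SE) had a 95% interval from 0.51 to 1.39, which is 1.43- to 2.63-fold. Its limma p was 0.00104 unadjusted and 0.286 adjusted over all features, and the exact two-sided permutation test gave 0.0179, the smallest p that 56 splits allow. It was 0.70 without knockout mouse 33, and -0.97 with the knockout sign turned.

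Lpin2, the other lipin among the members, overlapped between the genotypes. Its values ran from -0.20 to 0.12 in the wild types and were -0.03, 0.04 and 0.28 in the 3 knockouts. The difference was 0.11 ± 0.09 (95% interval -0.11 to 0.33, adjusted p = 0.732). It was 0.02 without knockout mouse 33, 0.07 without wild-type mouse 22 and 0.17 without knockout mouse 27. It was -0.03 without the 2 widest arrays, wild-type mouse 22 and knockout mouse 33, and -0.08 with the sign turned. Mouse 33 was the highest knockout for both lipins.

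Dgat1 and Dgat2 encode unrelated enzymes that both close the pathway by turning diacylglycerol into triglyceride. Dgat1 stood at 0.07, 0.07, -0.13, -0.09 and 0.09 in the 5 wild types, and at 0.03, -0.06 and -0.29 in the 3 knockouts. Knockout mouse 33 alone was outside the wild-type range. The difference was -0.11 ± 0.09, with a 95% interval from -0.31 to 0.09 (adjusted p = 0.718), or 0.10 with the sign turned. Without mouse 33 it was -0.017, and without knockout mouse 27 it was -0.18. Dgat2 stood at 0.18, 0.04, -0.26, 0.16 and 0.01 in the same wild types and at 0.13, 0.16 and -0.13 in the same knockouts. All 3 knockouts lay inside the wild-type range. The difference of 0.03 ± 0.11 had a 95% interval from -0.23 to 0.29 (adjusted p = 0.947). It was below 0 without wild-type mouse 21 (-0.05), knockout mouse 27 (-0.01) or knockout mouse 31 (-0.03), and -0.08 with the sign turned.

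Mogat1 encodes monoacylglycerol acyltransferase 1. Its log2 ratio was 0.28, -0.29, -0.49, -1.36 and 0.89 in the 5 wild types, and -2.58, -2.19 and -3.33 in the 3 knockouts. The wild types were themselves spread over 2.24, from mouse 22 to mouse 26, and the highest knockout lay 0.83 below the lowest wild type. The wild-type SD of 0.843 was larger than that of 99.4% of named genes, so Mogat1 was among the most variable genes of the wild-type livers too. The group values were -0.19 ± 0.84 (SD, n = 5) in the wild type and -2.70 ± 0.58 (SD, n = 3) in the knockout. The difference was -2.51 ± 0.48 (SE), with a 95% interval from -3.61 to -1.40, or 2.65- to 12.2-fold lower.

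By size, that difference ranked 4 among the absolute differences of all 36169 features, and 104 by p, or 5 and 56 with the knockout sign turned. Its limma p was 7.43e-04 unadjusted and 0.255 adjusted over all features, and the exact two-sided permutation test gave 0.0179. With 1 mouse left out it ran from -2.80 without wild-type mouse 22 (adjusted p = 0.0549) to -2.19 without knockout mouse 33 (adjusted p = 0.854). Mogat1 passed in limma with array weights (adjusted p = 0.0372), a fit in which the array of wild-type mouse 22 weighed 0.195, and when the 3 knockouts were set against the pool alone (-2.70, adjusted p = 0.0463). The residual spread in that second fit came from wild-type and knockout arrays together. The pool is 1 RNA sample shared by the 3 knockout arrays, so that second p leaves out the error of the wild-type mean and the pool's own error. Over the 16 alternatives other than the turned sign, the adjusted p ran from 0.0372 to 0.854. With the knockout arrays' sign turned, the difference was 2.89 (adjusted p = 0.185), higher in all 3 knockouts.

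**Figure D2:**
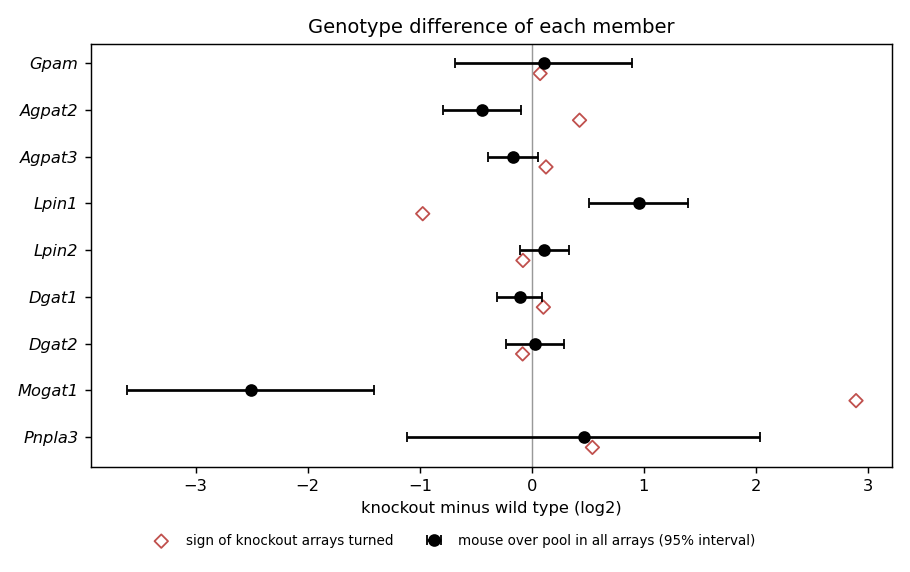
Knockout minus wild type (x axis, log2) for each of the 9 genes on the y axis: black points with 95% limma intervals read every array as mouse over pool, and open diamonds turn the sign of the knockout arrays. The intervals of Mogat1, Lpin1 and Agpat2 leave out 0, and those 3 differences change sign when the knockout arrays are turned.

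The promoters of Mogat1 and Lpin1, the members with non-overlapping groups, are shown because these genes differed in opposite directions. They are RefSeq sequences of build GRCm38.p6, from 250 bases before to 50 bases after an annotated start, Mogat1 at chr1:78510810-78511109 on the plus strand and Lpin1 at chr12:16610917-16611216 on the minus strand. Capitals mark AGGTCA, the hexamer read by PPARs and other nuclear receptors.
Mogat1: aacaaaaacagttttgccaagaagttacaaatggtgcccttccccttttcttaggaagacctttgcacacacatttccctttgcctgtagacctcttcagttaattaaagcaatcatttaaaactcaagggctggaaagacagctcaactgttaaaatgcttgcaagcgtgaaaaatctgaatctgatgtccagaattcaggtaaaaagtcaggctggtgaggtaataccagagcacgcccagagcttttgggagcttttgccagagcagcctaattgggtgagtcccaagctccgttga
Lpin1: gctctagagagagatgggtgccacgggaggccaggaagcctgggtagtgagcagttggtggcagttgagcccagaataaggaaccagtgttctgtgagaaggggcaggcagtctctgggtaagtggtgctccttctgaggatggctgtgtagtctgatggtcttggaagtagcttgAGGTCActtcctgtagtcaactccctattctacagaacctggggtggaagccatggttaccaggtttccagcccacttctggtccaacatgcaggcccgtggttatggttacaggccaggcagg
The Lpin1 window holds 1 AGGTCA, at bases 177 to 182, and the Mogat1 window holds none on either strand. That hexamer occurs on at least 1 strand in 16.3% of 32851 windows of this length. The sterol element TCACNCCAC (1.24% of windows), the E-box CACGTG (7.15%) and the direct repeat of the hexamer with 1 base between (0.0396%, overlapping the hexamer by construction) were searched on both strands too. None of these 3 occurs in either printed window. Windows were at hand for 7 of the 9 members, and beyond Lpin1 the matches in them were 1 AGGTCA in the second Gpam window and 1 CACGTG in the first Lpin2 window. A match is a description of these letters, not a binding site.

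Pnpla3 encodes a lipid droplet protein with acyl hydrolase activity, regulated with fat synthesis genes in mice. It stood at 1.50, -0.74, -0.88, -1.26 and -1.12 in the 5 wild types, and at 1.07, -0.91 and -0.27 in the 3 knockouts. Wild-type mouse 14 and knockout mouse 27 were above the pool and the other 6 mice below it, so the high livers were 1 of each genotype. The wild-type SD of 1.14 exceeded that of 99.8% of named genes. The difference of 0.46 ± 0.69 had a 95% interval from -1.11 to 2.04 (adjusted p = 0.833). It was -0.09 without knockout mouse 27, 0.96 at the highest with 1 mouse left out, and 0.54 with the sign turned.

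Me1 itself was among the genes closest to Gpam over the mice. Over the 8 mice and 1354 other named genes whose log2 range was at least 1, Me1 had the second highest Pearson r with Gpam, 0.927, after Gngt1 at 0.969. Over the 5 wild types alone the r of Me1 was 0.904, and with the knockout sign turned it was 0.910. Both genes were above 0 in wild-type mice 14 and 26 and knockout mouse 27 and below 0 in wild-type mice 15 and 22 and knockout mice 31 and 33. Wild-type mouse 21 had 0.11 for Gpam and -0.70 for Me1. With Mogat1, Me1 had r = 0.951 over the 5 wild types and 0.322 over the 8 mice. Over the wild types Olfr767, Stap1 and Aqp8 had r with Gpam of 0.973, 0.970 and 0.942, above that of Me1. These r values are descriptions over 8 arrays that share 1 pool.

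Among fatty acid synthesis genes, Fasn, Acly and Elovl6 were, like Gpam, highest in knockout mouse 27. Fasn, the fatty acid synthase, stood at 0.33, -1.12, 0.07, 0.12 and 0.18 in the 5 wild types, and at 1.87, -0.37 and -0.13 in the 3 knockouts. Acly, which supplies acetyl-CoA, stood at 1.64 in knockout mouse 27 and -0.78 in wild-type mouse 15, and the elongase Elovl6 at 1.39 and -1.17. If the knockout arrays ran the other way, mouse 27 would instead be the lowest of the 8 for Fasn, Acly and Elovl6, though not for Gpam. Other genes of that list had other orders: Scd1 was highest in wild-type mouse 26, Acaca and Scd2 in wild-type mouse 22 (0.29 and 0.43), and Thrsp and Fads2 in knockout mouse 33 (1.02 and 0.84). The transcription factor gene Srebf1, a known regulator of Gpam and Pnpla3, stood at 0.43 in knockout mouse 27 and -0.59 in knockout mouse 33. Srebf1 was at 0.39 in wild-type mouse 22 and -0.54 in wild-type mouse 26. It therefore did not follow Gpam, which was lowest in mouse 22 and high in mouse 26.

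For Pnpla3 the gene with the closest pattern was Psmc3ip, a recombination cofactor gene, with r = 0.903 over 8 mice, and next was Pdhb, a pyruvate dehydrogenase subunit, with r = 0.821. Over the 5 wild types these were 0.986 and 0.824, and with the knockout sign turned 0.914 and 0.632. Pnpla5, the protein-coding gene next to Pnpla3 on the chromosome and of the same family, stood at 1.39 in knockout mouse 27. In the other 7 mice Pnpla5 lay between -0.15 and 0.19, where wild-type mouse 14 had the highest value of those 7. The other neighbour, Samm50, lay between -0.14 and 0.15 in all 8.

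**Figure D3:**
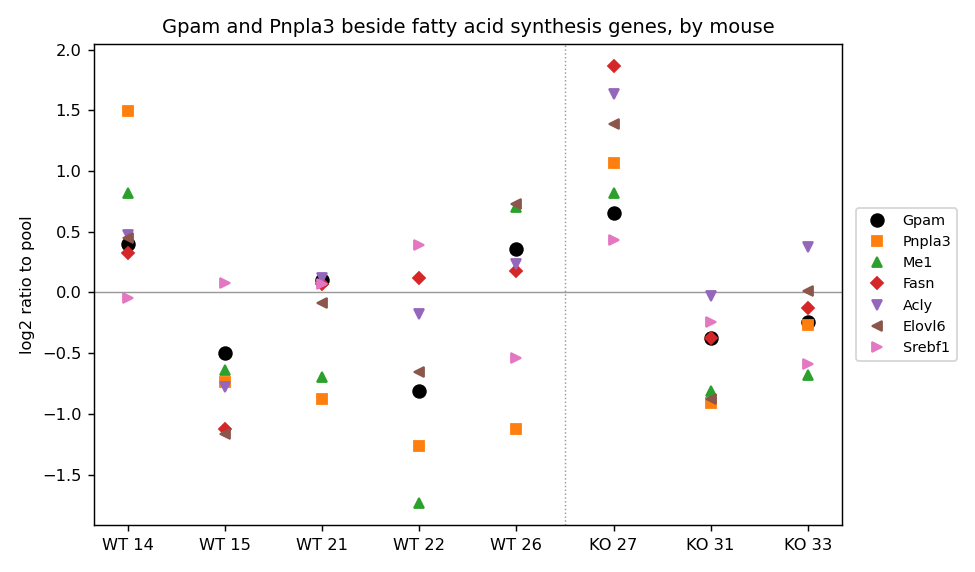
Log2 ratio to the pool (y axis) of Gpam, Pnpla3, Me1, Fasn, Acly, Elovl6 and Srebf1 in each of the 8 livers (x axis), with 1 symbol per gene. In KO 27 all 7 genes are above 0, from 0.43 for Srebf1 to 1.87 for Fasn, and in WT 15 all but Srebf1 are below 0.

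The genes closest to Mogat1 over the mice were Flacc1 (r = 0.983), Cdkn1a (0.981), Clstn3 (0.980), Sox6os (0.974) and Lgals4 (0.971), among the same 1354 genes. Over the 5 wild types alone these r values ran from 0.875 to 0.983, and with the knockout sign turned from 0.965 to 0.986. These genes were picked by r over all the mice, the wild types among them, so neither range is an independent check. Clstn3, a calsyntenin gene, had 0.25, -0.11, -0.29, -0.64 and 0.23 in the 5 wild types, and -1.0, -1.07 and -1.75 in the knockouts. Cdkn1a, the cell cycle inhibitor p21, spanned less, from 0.35 in wild-type mouse 26 to -0.65 in knockout mouse 33. Lpin1 stood near the other end of the order, at rank 1349 of 1354 (r = -0.942, or -0.947 with the knockout sign turned). It was lowest in wild-type mouse 26, where Mogat1 was highest, and highest in knockout mouse 33, where Mogat1 was lowest.

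Cidea and Cidec, fat storage proteins of the lipid droplet, and Pparg, the gene of the receptor PPAR-gamma, were, like Mogat1, highest in wild-type mouse 26 and lowest among wild types in mouse 22. Cidea ranked 16 in likeness (r = 0.961), Cidec 58 (0.930) and Pparg 108 (0.898), and over the 5 wild types r was 0.949, 0.990 and 0.980. With the knockout sign turned r was 0.970, 0.964 and 0.931. A high r over the wild types was not particular to these genes. It was 0.985 for Fabp4 and 0.951 for Me1, which ranked only 289 and 537 in likeness, against 0.841 for Gpam and 0.339 for Pnpla3. The arrays of wild-type mice 22 and 26 correlated at -0.459 over all probes. How many genes reach such an r over the wild types was not counted, so a particular link to Mogat1 was not tested. Pparg, as the mean of 3 probes, stood at 0.20, -0.03, -0.22, -0.99 and 0.51 in the 5 wild types, and at -0.67, -0.58 and -1.0 in the knockouts. Wild-type mouse 22 thus had a Pparg value as low as those of the knockouts, and its Cidec value of -2.87 lay below that of knockout mouse 27 at -2.31, whereas its Mogat1 value of -1.36 was above those of all 3. The differences were -3.26 ± 0.56 for Cidea, -2.62 ± 0.85 for Cidec and -0.64 ± 0.30 for Pparg (limma adjusted p = 0.191, 0.453 and 0.557), and 3.93, 3.81 and 0.86 with the sign turned.

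Some markers of another liver cell type stood low in the same mice as Mogat1. Of 7 stellate cell genes 2 were higher and 5 lower in the knockout (median difference -0.27), or 5 higher and 2 lower with the sign turned (median 0.39). Their median per mouse ran from -0.50 to 0.21 in the wild types and from -0.50 to -0.05 in the knockouts. Col1a1, a collagen of activated stellate cells, stood at 0.29, -0.02, -0.85, -1.66 and 0.93 in the 5 wild types, and at -1.75, -1.38 and -1.52 in the knockouts. The 5 wild types stood in the same order for Col1a1 as for Mogat1 (r = 0.977). The stellate genes Des and Lrat stood at 0.02, -0.00 and 0.17, and at 0.17, -1.10 and -0.05, in the 3 knockouts. Which part this has in the Mogat1 difference was not tested, and in whole liver fewer cells of a type and less RNA per cell cannot be told apart.

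The lists of hepatocyte, adipocyte and enterocyte markers had medians near the pool, with single genes far from it. The median per mouse over 10 hepatocyte genes ran from -0.10 to 0.20 in the wild types and from -0.01 to 0.21 in the knockouts, and Alb lay between -0.04 and 0.04 in all 8, while Cyp3a11 stood at -0.77, -0.70 and -0.74 in the knockouts and -1.03 in wild-type mouse 22. For 9 adipocyte genes it ran from -0.01 to 0.16 and from -0.05 to 0.01, and for 8 enterocyte genes from -0.05 to 0.03 and from -0.05 to -0.00. The adipocyte genes Adipoq and Plin1 had knockout values from 0.00 to 0.05 and from -0.05 to 0.08, where Mogat1 stood at -2.19 or lower. Other genes of the adipocyte list stood lower in the knockouts, among them Fabp4 at -0.44, -0.39 and -0.28 (r = 0.985 with Mogat1 over the wild types), Cfd at -0.86, -0.16 and -2.30, and Pck1 at -0.77, -0.28 and -0.20. Of the enterocyte genes, Apoa4 stood at -1.82, -2.34 and -2.48 and Lct at -0.26, 0.44 and 1.48. Mogat2, the intestinal enzyme of the same family, stood at 0.05, -0.12 and -0.21 in the knockouts and between -0.04 and 0.13 in the wild types. Medians of Kupffer cell, endothelial and cholangiocyte lists stayed between -0.17 and 0.15 in the knockouts. Within them the endothelial gene Lyve1 stood at -0.78, -1.42 and -1.16, with r = 0.899 to Mogat1 over the wild types. All 7 lymphocyte genes were higher in the knockouts, where their median lay between 0.14 and 0.27 against -0.08 to 0.13 in the wild types, and all 7 were lower with the sign turned. The part of these genes in the Mogat1 difference was not tested. Ratios to a pool cannot show whether a marker is absent.

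**Figure D4:**
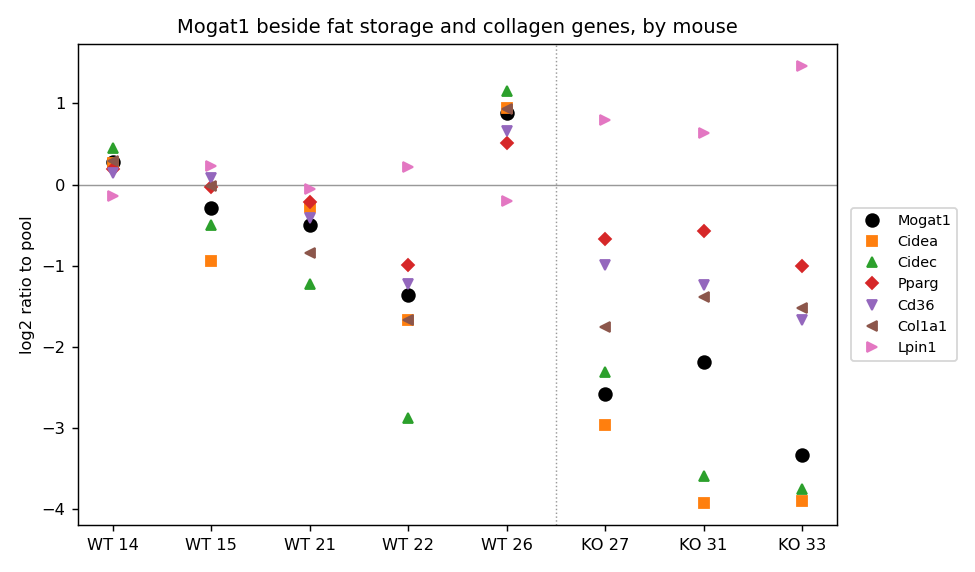
Log2 ratio to the pool (y axis) of Mogat1, Cidea, Cidec, Pparg, Cd36, Col1a1 and Lpin1 in each of the 8 livers (x axis), with 1 symbol per gene. Lpin1 is at 0.63 or higher in every knockout while the other 6 genes are at -0.58 or lower there, and in WT 22 those 6 are at -0.99 or lower. Cd36, a fatty acid uptake gene, and Col1a1 were chosen after their values were seen. Other genes of their lists, not drawn, stood otherwise in the knockouts, such as Fabp5 at 0.47 or higher and Des at -0.00 to 0.17.

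The lists of other glycerolipid assembly genes had median differences near 0, and each value given with ± for them is a difference with its SE. Of 18 other acyltransferases and lipins measured, 5 were higher and 13 lower in the knockout, with a median of -0.03 and none past the adjusted threshold, or 12 higher and 6 lower (median 0.04) with the sign turned. Gpat2, a mitochondrial acyltransferase related to Gpam, stood at -0.25 ± 0.09 (adjusted p = 0.490), and Soat1, which esterifies cholesterol, at -0.26 ± 0.10 (0.508). Glycerol 3-phosphate supply had 6 genes higher and 4 lower, with a median of 0.06, and again 6 and 4 with the sign turned (median 0.01). Its Gpd1, the enzyme that makes glycerol 3-phosphate in the cytosol, was 0.23, 0.05, -0.35, -0.31 and 0.31 in the 5 wild types, and -0.57, -0.79 and -1.25 in the knockouts. All 3 knockouts were below every wild type, as in 2.85% of all features, and the difference was -0.85 ± 0.20 (adjusted p = 0.324). Pck1, a source of glycerol 3-phosphate through glyceroneogenesis, stood at -0.46 ± 0.16 (adjusted p = 0.485), and at -0.28 without knockout mouse 27.

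Supply of acyl-CoA was mixed, with 8 of 18 uptake, binding and activation genes higher and 10 lower (median -0.05), or 9 and 9 with the sign turned (median 0.01). Acsl3, an acyl-CoA synthetase of the lipid droplet, lies 2 protein-coding genes from Mogat1 and stood at a difference of 0.43 ± 0.11 (adjusted p = 0.367). Its values were 0.67, 0.36 and 0.26 in the 3 knockouts, against a wild-type range from -0.23 to 0.12. The fatty acid binding protein gene Fabp5 stood at 1.16 ± 0.34 (adjusted p = 0.419), and at 0.67 without knockout mouse 33. Phosphatidate and diacylglycerol also feed phospholipids, and of 21 such genes 6 were higher and 15 lower (median -0.06), or 15 higher and 6 lower with the sign turned (median 0.09). Chpt1, which makes phosphatidylcholine from diacylglycerol, stood at -0.67 ± 0.16 (adjusted p = 0.343), and Pemt, which makes it from phosphatidylethanolamine, at 0.36 ± 0.10 (0.380). Neither overlapped between the genotypes. Of the 21 genes 2 were higher and 2 lower without overlap, against 4.35% and 2.85% of all features. Genes named from other lists did not overlap either, among them Gpat2, Soat1, Fabp5 and Ces1e.

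Downstream of assembly, 8 of 18 triglyceride hydrolysis genes were higher and 10 lower (median -0.08), or 10 and 8 with the sign turned (median 0.10). The carboxylesterase gene Ces1e stood at 0.65 ± 0.16 (adjusted p = 0.343) and the lipoprotein lipase gene Lpl at -0.52 ± 0.14 (0.393). In VLDL assembly 5 of 11 genes were higher and 6 lower (median -0.02), as with the sign turned (median -0.06). Apoa4, an apolipoprotein of fat-laden particles, stood at -1.98 ± 0.58 (adjusted p = 0.412) and the sorting receptor gene Sort1 at 0.67 ± 0.20 (0.416). Of 14 lipid droplet genes, 12 stood lower and 2 higher (median -0.15), with Fitm1, which partitions fat into droplets, at -0.71 ± 0.16 (adjusted p = 0.315) beside Cidea. In the first reading 49.9% of all named genes were above 0. Genes of 1 list were read in the same mice, so such counts are not independent.

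Upstream, 13 of 15 fatty acid synthesis genes were higher and 2 lower, with a median of 0.48. Acss2, which activates acetate, stood at 1.02 ± 0.17 (adjusted p = 0.189) and the desaturase Fads2 at 0.64 ± 0.16 (0.343). The median of that list per mouse ran from -0.61 to 0.31 in the wild types and was 0.82, 0.02 and 0.17 in the 3 knockouts. Of 19 transcription factors and cofactors, 8 were higher and 11 lower (median -0.02), or 9 and 10 with the sign turned (median -0.00). The list held the SREBP escort gene Scap at 0.24 ± 0.07 (adjusted p = 0.401) and Insig1, a sterol target and brake of the same system, at 0.67 ± 0.23 (0.479). No gene of these lists passed an adjusted p of 0.05 over all features. With the knockout arrays' sign turned, 4 of 15 fatty acid synthesis genes were higher (median -0.30) and 11 of 14 lipid droplet genes were higher (median 0.20).

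**Figure D5:**
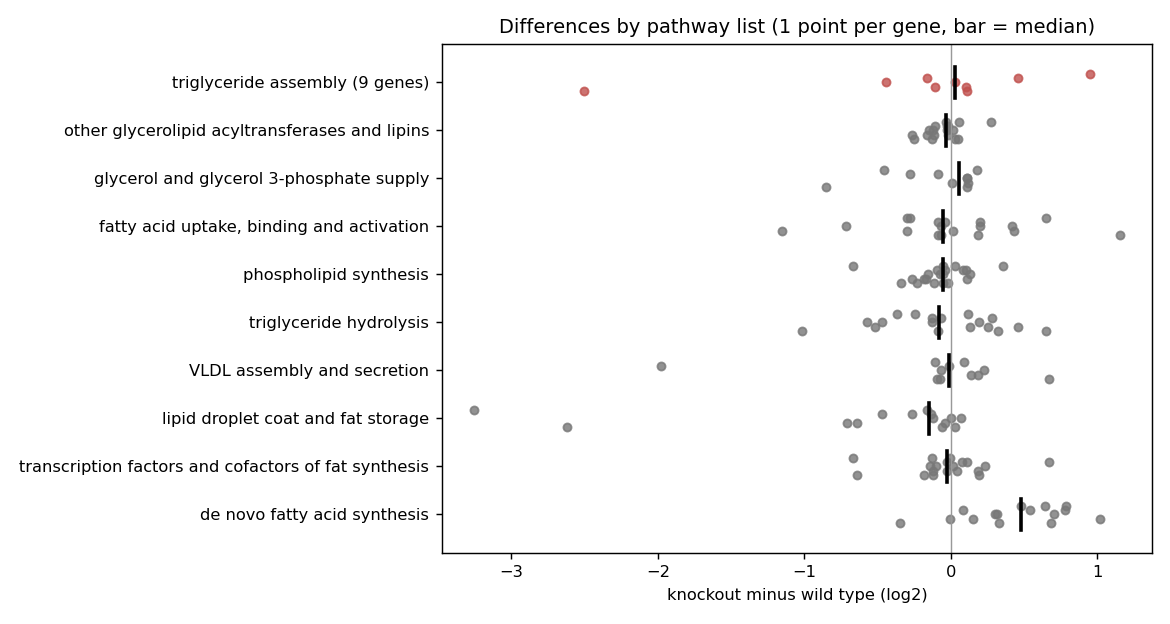
Knockout minus wild type (x axis, log2) of every measured gene in the triglyceride assembly list (red) and in 9 other lists fixed for the pathway (grey), 1 list per row on the y axis, with black bars at list medians. The list medians lie between -0.15 and 0.48, and Mogat1 at -2.51, Cidea at -3.26 and Cidec at -2.62 stand furthest left.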

How the data were processed

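The authors deposited 1 table of log ratios, read here as log10, with 39556 probes and 1 column per mouse. The base and direction are inferred and not stated with the values, and the sources used here do not give scanner settings, background correction, normalization or how dye swaps were merged. Spot brightness was not used here. Groups came from the sample titles, and mouse numbers do not pair the genotypes. Apart from the wild types being given as littermates, nothing says more of the replicates than that they are different mice.

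Values were converted to log2, and probes were named through the platform annotation (23283 with 1 symbol, 16273 with none). Symbols were updated through a RefSeq table of GRCm38.p6, and 6594 probes changed name. Probes of 1 symbol were averaged, and 36169 features were fitted in limma 3.58.1 (R 4.3.3) with Benjamini-Hochberg adjustment over all of them. The fit was tested on simulated data.

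The members and all lists were chosen with earlier results of these data known. The text names all 9 members, the 2 genes with the smallest p in each pathway list, Cidea, Cidec and Pparg, and the 5 genes closest to Mogat1. Genes closest to Gpam and Pnpla3, single synthesis, uptake and marker genes, and neighbouring genes were chosen after their values were seen. Alternatives were other scalings, array weights, single probes, a variance filter, robust moderation, the turned sign and mice left out.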

Additional observations from a re-analysis of the deposited data

Results flagged for a closer look

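Among the 9 genes, 1 wild-type value stood apart from its group by Dixon's test at the 95% level: Pnpla3 in wild-type mouse 14, at 1.50 on the log2 scale against -0.74 for the nearest of the other 4 wild types. The gap took 0.809 of the group's range, where the critical value for 5 samples is 0.71. Chance flags about 1 in 20 groups, and 9 were examined.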

How the results depend on the processing

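No paired analysis was possible because the mouse numbers differ between the genotypes. The number of members past the threshold was 0 in every fit of the genotype difference except that with array weights, where it was 1. The number of features past it was 10, and it became 207 with array weights, 16 with single probes, 17 without the least variable genes, 19 without both widest arrays, and 6 to 65 with 1 mouse left out: 6 when wild type 14 was dropped, 18 for wild type 26, 17 for knockout 27 and 65 for wild type 22. Mogat1, Lpin1, Agpat2, Agpat3 and Dgat1 kept their direction in all 16 alternatives other than the turned sign. Lpin1 passed in none of them. With 1 mouse left out, Gpam ran from -0.22 to 0.30, Dgat2 from -0.046 to 0.12 and Pnpla3 from -0.091 to 0.96. With array weights Gpam was -0.22 and Pnpla3 -0.40, Pnpla3 was -0.039 against the pool, and Lpin2 was -0.025 without both widest arrays. The cause was not tested.

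With the knockout arrays given the opposite sign, the differences were 2.89 for Mogat1, 0.43 for Agpat2, 0.13 for Agpat3, -0.97 for Lpin1, -0.080 for Lpin2, 0.10 for Dgat1 and -0.082 for Dgat2. They were 0.28 for Gpat2, 0.28 for Soat1, 0.88 for Gpd1, 0.38 for Pck1, -0.42 for Acsl3, -1.04 for Fabp5, 0.74 for Chpt1, -0.40 for Pemt, -0.64 for Ces1e, 0.57 for Lpl, 2.46 for Apoa4 and -0.61 for Sort1. They were 3.93 for Cidea, 3.81 for Cidec, 0.70 for Fitm1, 0.86 for Pparg, -0.29 for Scap, -0.53 for Insig1, -0.97 for Acss2 and -0.61 for Fads2. Among the other named genes, Cidea also passed with array weights (adjusted p = 0.0204) and without wild-type mouse 22 (0.0464), and Chpt1 and Pemt with array weights (0.0420 and 0.0432). A filter on dim probes was not run, since brightness was not used here.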
